A study of Mus musculus with 12 samples.

Results

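Major histocompatibility complex (MHC) class II presentation was followed in mouse brain through 10 genes, chosen by symbol as known parts of the pathway. The choice was made with earlier results of these data known. All 10 were found among the 35697 gene identifiers of a count table from 2018 and among the 55637 of a second table from 2022. The 2018 table holds 3 sham mice and 3 mice with traumatic brain injury (TBI). The 2022 table holds 3 injured mice and 3 injured mice given zileuton, an inhibitor of 5-lipoxygenase, the enzyme that starts leukotriene synthesis.

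The labels describe every animal as a wild-type adult male C57BL/6J mouse. TBI was made by controlled cortical impact, in which a piston strikes the exposed cortex, and sham mice had the same surgery without the impact. Injured mice were taken 7 days after TBI, and the design text places the tissue around the contusion. Zileuton, in corn oil, was given daily after the injury by injection into the abdomen, at 10 mg per kg of body weight. The labels call the injured mice of 2022 only TBI, while the study text describes them as vehicle-treated. For 2 of the 3 zileuton mice the labels give 8 and 9 days after injury, although their library names say 7. The 2022 columns carry numbers that match no label, so these libraries are called A, B and C here, and the 8 and 9 day mice cannot be told from the other. The labels give each library its own sample name but no litter or surgery day.

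Class II molecules are pairs of an alpha and a beta chain that carry peptides from the endosome to the cell surface, where CD4 T cells read them. Cd74, the invariant chain, fills the peptide groove of new molecules, and the H2-DM pair later removes its last fragment so that other peptides can bind. Ciita is the coactivator that switches the whole gene family on, by joining the factors RFX, CREB and NF-Y on a shared promoter element, the X and Y boxes. In resting brain few cells carry class II, and microglia, macrophages of the brain borders and blood-derived myeloid cells are its usual sources after injury. Cd80 and Cd86 are the costimulatory ligands for CD28 on the T cell, and Cd40 receives the T cell signal CD40L.

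Promoters of class II chains are shown because most of these genes rose after injury and the family shares a promoter element. RefSeq promoter windows of the GRCm38.p6 build, each 250 bases before to 50 bases after a start site, were on hand for 5 of the 10 members and for 4 of 5 other class II genes. The 5 members were H2-Aa, H2-Eb1, H2-DMa, H2-DMb1 and Cd80. Capitals mark the letters GCAAC, the core of the X box, ATTGG, the core of the Y box and the reverse of CCAAT, and TGACG, a CREB-type core inside the H2-Aa window. Each line runs 5′ to 3′ on the gene's own strand.
H2-Aa, chr17:34287857-34287914, minus strand: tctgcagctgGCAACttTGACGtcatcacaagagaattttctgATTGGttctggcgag
H2-Eb1, chr17:34305766-34305822, plus strand: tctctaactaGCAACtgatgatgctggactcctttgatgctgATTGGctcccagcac
H2-DMb1, chr17:34153085-34153144, plus strand: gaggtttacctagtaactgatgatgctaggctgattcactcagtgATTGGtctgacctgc
H2-DMb2, chr17:34145114-34145173, plus strand: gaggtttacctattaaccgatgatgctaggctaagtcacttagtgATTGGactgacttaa
H2-Oa, chr17:34092293-34092350, plus strand: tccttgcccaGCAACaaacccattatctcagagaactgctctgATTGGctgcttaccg
H2-Ob, chr17:34238808-34238862, plus strand: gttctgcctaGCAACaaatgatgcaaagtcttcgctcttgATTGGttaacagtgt
H2-Eb2, chr17:34325533-34325589, plus strand: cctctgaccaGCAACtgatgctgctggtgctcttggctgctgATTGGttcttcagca

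GCAAC followed by ATTGG on the gene's strand, with their starts 20 to 45 bases apart, was present in 197 of 32851 RefSeq promoters (0.600%). It was present in 5 of the 10 class II and Cd80 windows examined, where H2-DMa counts with 2 start sites. Those 5 were H2-Aa, H2-Eb1, H2-Oa, H2-Ob and H2-Eb2. The starts lay 33 bases apart in H2-Aa and H2-Oa, 32 in H2-Eb1 and H2-Eb2 and 30 in H2-Ob. Each core alone was common. CCAAT in either direction was in 37.4% of all promoters, GCAAC in either direction in 35.2% and TGACG in either direction in 20.8%. H2-DMb1 and H2-DMb2 hold ATTGG without GCAAC, and their printed stretches share 51 of 60 bases. A match of letters describes the window and is not a measured binding site.

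Sequencing depth was 42929862 to 48684674 counts per library in 2018 and 27845562 to 35453257 in 2022. The tables may not count reads alike, so these depths should not be compared. Of whole counts from 1 to 20, 62.3% to 64.4% were even in 2018 and 40.1% to 41.9% in 2022. The labelled tissue carried its markers: every neuron, astrocyte and oligodendrocyte marker listed was read in all 12 libraries. All 6 libraries of 2018 held 856 to 1155 counts of Xist, a transcript of the inactive X chromosome in female cells, while those of 2022 held 1.02 to 6.01, and Y-linked genes were also read in the 2018 libraries although the labels say male. Whether a 2018 library holds more than 1 animal cannot be told from these sources, so a 2018 mouse here means 1 library. Markers of choroid plexus, the tissue that makes cerebrospinal fluid, differed strongly between libraries of 1 group. Their sum was 18.7 to 1075 counts per 1000000 (CPM) in the sham mice, 1158 to 1341 in the injured mice of 2018, 11.0 to 1057 in those of 2022 and 14.9 to 1479 with zileuton.

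Class II presentation genes were strongly higher after TBI. Of the 10 members 9 were higher in injured than in sham mice at a Benjamini-Hochberg adjusted p under 0.05 from edgeR's quasi-likelihood test, and none was lower. Over all 19536 genes tested, 28% were called, made up of 16.8% higher and 11.2% lower. The median log2 fold change was 2.66 over the members and 0.02 over all genes tested. In 9 members every injured mouse lay above every sham mouse, against 24.6% of all genes tested. Summed over the 10 members, normalized counts were 20.9 to 22.1 CPM in sham mice and 101 to 198 CPM after TBI. In tissue RNA, more cells that express a gene and more RNA per cell cannot be told apart.

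The I-A chains, H2-Eb1 and Cd74 had the largest fitted fold changes of the members. H2-Aa, the alpha chain of the I-A molecule, was read at 1.02, 0.865 and 0.631 CPM in sham mice 1 to 3 and at 11.2, 22.8 and 38.9 CPM in injured mice 1 to 3. Injured mouse 1 was the lowest of its group and still far above every sham mouse. The means were 0.839 ± 0.196 CPM (SD, n = 3) in sham and 24.3 ± 13.9 CPM (SD, n = 3) after TBI. The log2 fold change was 4.85 (SE 0.465), a 28.9-fold rise with a 95% interval of 13.9 to 60.1 (edgeR adjusted p = 0.000123).

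H2-Ab1, the I-A beta chain, had 1.11, 1.25 and 1.22 CPM in sham mice and 17.3, 25.1 and 32.8 CPM after TBI. Sham mice were nearly alike, with a coefficient of variation of 6.31%, and no injured mouse came near them. It rose by a log2 fold change of 4.39 (SE 0.249, edgeR adjusted p = 1.16e-05).

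H2-Eb1 is the beta chain of the I-E molecule, whose alpha chain C57BL/6 mice lack. It had 1.78, 1.90 and 1.52 CPM in sham mice and 13.4, 24.0 and 37.1 CPM after TBI. The groups did not overlap, and injured mouse 3 was again the highest. Its log2 fold change was 3.84 (SE 0.355, edgeR adjusted p = 0.000101). The gene overlaps an antisense transcript in the GENCODE annotation of GRCm38, and strand was not stated for the counting, so the 2 cannot be separated.

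Cd74 was read at 1.89, 2.51 and 1.75 CPM in sham mice and at 24.6, 32.9 and 40.0 CPM in injured mice. Of these genes it varied least among injured mice, with a coefficient of variation of 23.7% against 57.3% for H2-Aa, 47.8% for H2-Eb1 and 30.8% for H2-Ab1. The rise was 15.9-fold with a 95% interval of 11.2 to 22.4 (log2 fold change 3.99, SE 0.218, edgeR adjusted p = 1.06e-05). H2-Aa, H2-Ab1, H2-Eb1 and Cd74 were the members with a log2 fold change of at least 3. A rise of that size was reached with a call by 1.92% of the genes tested.

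**Figure D1:**
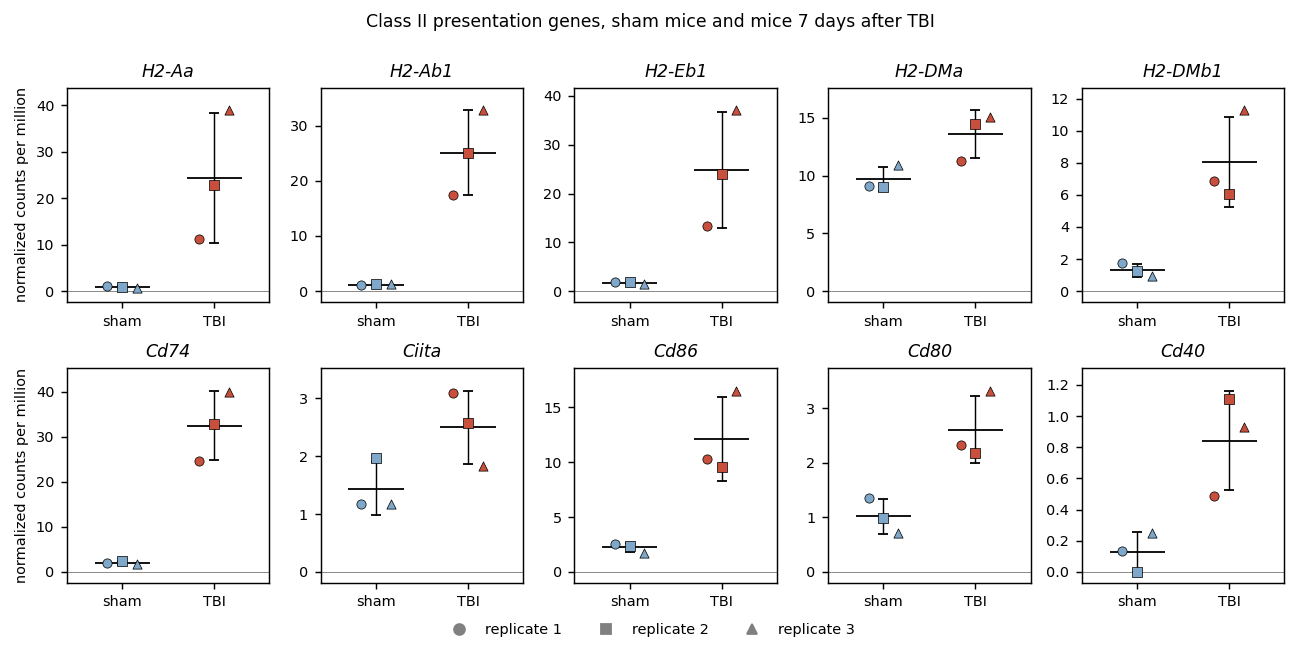
Normalized CPM (vertical axes, linear, each with its own scale) of the 10 members in 3 sham mice (blue) and 3 mice 7 days after TBI (red). Each symbol is 1 mouse, bars are the mean and error bars 1 SD: every gene except Ciita has all injured mice above all sham mice, and replicate 3 is the highest injured mouse in 8 of 10 panels.

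Of the 2 chains of the peptide exchange factor H2-DM, the beta chain had the larger fitted fold change. H2-DMb1 had 1.73, 1.23 and 0.926 CPM in sham mice and 6.89, 6.03 and 11.3 CPM after TBI. It rose 6.22-fold with a 95% interval of 3.78 to 10.2 (log2 fold change 2.64, SE 0.316, edgeR adjusted p = 0.000447). Reads of H2-DMb1 and its near copy H2-DMb2 may be split between them, so each value is uncertain.

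H2-DMa, the alpha chain, was already at 9.14, 9.01 and 10.9 CPM in sham mice and reached 11.3, 14.5 and 15.1 CPM after TBI. The groups did not overlap, but the highest sham mouse and the lowest injured mouse were close. Its rise of 1.41-fold had a 95% interval of 1.11 to 1.78 (log2 fold change 0.49, SE 0.149, edgeR adjusted p = 0.0376). The call was lost without any one of sham mice 1, 2 and 3 or injured mice 2 and 3, with adjusted p from 0.0518 to 0.123. H2-DMa overlaps Brd2, on the other strand, and 3 shorter annotated transcripts. Strand was not stated for the counting, so these cannot be separated and the level of H2-DMa, here and below, is uncertain.

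Ciita, the switch of the family, was the member without a call. It had 1.18, 1.97 and 1.18 CPM in sham mice and 3.09, 2.57 and 1.83 CPM after TBI. Sham mouse 2 lay above injured mouse 3, so the groups overlapped. The log2 fold change was 0.79 (SE 0.307) with a 95% interval of 0.10 to 1.49 (edgeR adjusted p = 0.0866). Without sham mouse 2 it was 1.06 and passed the threshold (edgeR adjusted p = 0.0492). Injured mouse 3, highest of its group for H2-Aa, H2-Ab1 and H2-Eb1, was the lowest of its group for Ciita. Ciita overlaps Dexi on the other strand, and with the strand of counting not stated they cannot be separated either.

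All 3 costimulatory members rose. Cd86 had 2.57, 2.36 and 1.77 CPM in sham mice and 10.3, 9.56 and 16.5 CPM in injured mice. It rose 5.42-fold with a 95% interval of 3.64 to 8.08 (log2 fold change 2.44, SE 0.254, edgeR adjusted p = 0.000201). Every injured mouse had well over the highest sham level.

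Cd80 had 1.35, 0.994 and 0.716 CPM in sham mice and 2.34, 2.18 and 3.32 CPM after TBI. The groups did not overlap, and the rise was 2.55-fold with a 95% interval of 1.57 to 4.16 (log2 fold change 1.35, SE 0.310, edgeR adjusted p = 0.0119). Cd40 was the scarcest member, with raw counts of 6, 0 and 12 without injury and of 24, 54 and 40 with it. Sham mouse 2, without a count, allows a level of up to 3 counts by counting error alone if counts are independent. With 62.3% to 64.4% of counts from 1 to 20 even in 2018, that is uncertain and the limit may be higher. The log2 fold change of Cd40 was 2.68 (SE 0.779, edgeR adjusted p = 0.0323). It was 3.60 without sham mouse 3 and 2.08 without sham mouse 2, and the call was lost without sham mouse 1 or injured mice 2 or 3, with adjusted p from 0.0729 to 0.103.

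**Figure D2:**
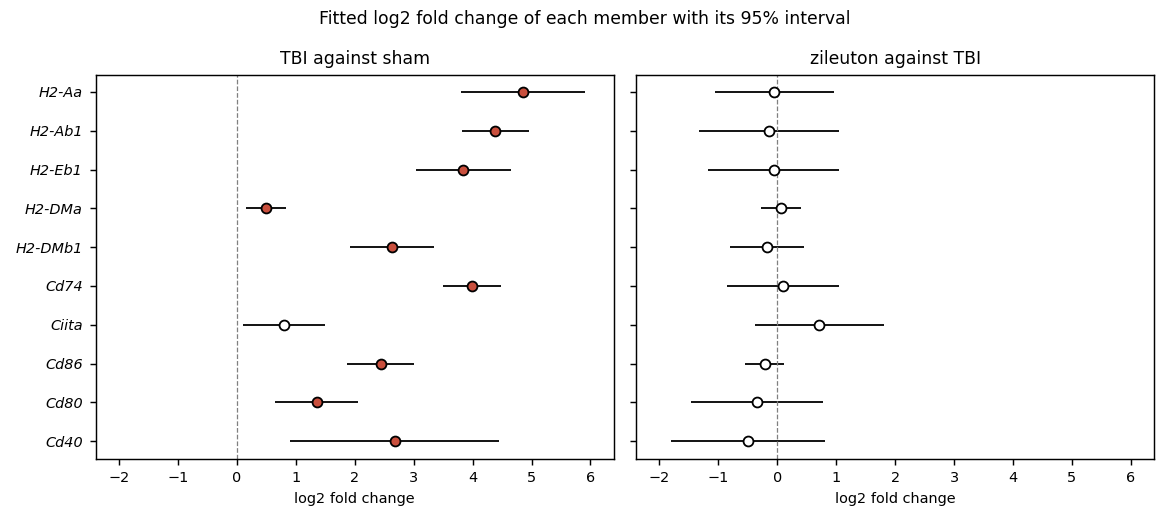
Fitted log2 fold change (horizontal axis) of each member with its 95% interval from edgeR, for TBI against sham (left) and zileuton against TBI (right). Filled points have an adjusted p under 0.05: 9 of 10 are filled on the left, from 0.49 for H2-DMa to 4.85 for H2-Aa, and none on the right, where every interval crosses 0.

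The order of the members by level changed with injury. Levels of different genes are compared as FPKM, which divides by transcript length. In sham mice H2-DMa was the highest at 2.76 ± 0.308 FPKM (SD, n = 3), followed by Cd74 at 1.20 ± 0.239 FPKM. Both were separate from their neighbours below. H2-Eb1, H2-DMb1, Cd86 and H2-Ab1 followed at means of 0.874 to 0.457 FPKM, each overlapping the next among them. H2-Aa stood near the bottom at 0.217 FPKM, overlapping Cd80 above and Ciita below, and Cd40 was lowest at 0.0371 FPKM.

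After TBI Cd74 led at 19.7 ± 4.59 FPKM, then came H2-Eb1 at 13.0 ± 6.10, H2-Ab1 at 9.92 ± 3.00 and H2-Aa at 6.50 ± 3.66 FPKM (SD, n = 3). H2-DMb1 at 4.87, H2-DMa at 4.02 and Cd86 at 3.36 FPKM came next. Among these 7, each overlapped the next. Cd74, from 14.8 to 23.9 FPKM, lay above the whole range of all of them except H2-Eb1. Cd80 at 0.716 FPKM stood apart from Cd86 above it and from Ciita at 0.267 FPKM below it, and Ciita overlapped Cd40 at 0.252 FPKM. By mean level H2-DMa went from the first to the sixth place while its own level rose, and after TBI its range of 3.31 to 4.40 FPKM overlapped those of H2-Aa, H2-DMb1 and Cd86.

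Ratios within a library put the same values free of library scaling. Of 12 ratios computed, 6 per table, the smallest p that 3 against 3 can give in a two-sided exact permutation test is 0.1, so none could pass a threshold of 0.05. The ratio of H2-DMa to H2-DMb1 was 2.58 to 5.74 in sham mice and 0.653 to 1.17 after TBI. Its log2 difference was -2.14 (exact permutation p = 0.1, 0.24 after adjustment over 12). Both levels are uncertain, that of H2-DMa for its overlaps and that of H2-DMb1 for its near copy. The ratio of H2-Ab1 to Ciita was 2.37 to 3.85 in sham mice and 20.8 to 66.4 after TBI, a log2 difference of 3.54. Cd86 exceeded Cd80 1.92 to 2.50 times in sham mice and 4.44 to 5.03 times after TBI.

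H2-Eb1 to H2-Ab1 and Cd74 to H2-Ab1 moved less, by log2 differences of -0.62 and -0.37. None of these 5 ratios overlapped between groups, and each had the same exact permutation p of 0.1. The 2 chains of I-A, H2-Aa and H2-Ab1, gave a ratio of 0.350 to 0.622 in sham mice and 0.437 to 0.802 after TBI, and these ranges overlapped (exact permutation p = 0.5).

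**Figure D3:**
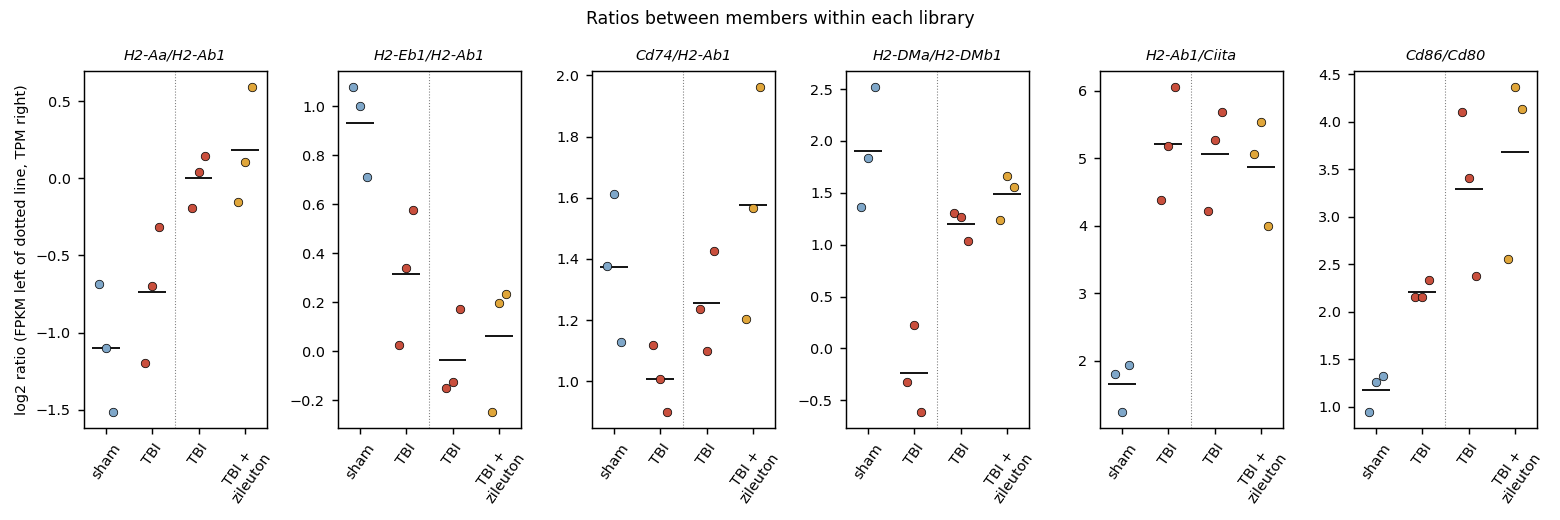
Log2 ratios between pairs of members within each library (vertical axis), from FPKM in the 2018 table left of the dotted line and TPM in the 2022 table right of it. Each point is 1 library and bars are group means: sham and TBI points are separate in 5 of 6 panels, H2-Aa/H2-Ab1 being the exception, while TBI and zileuton points overlap in all 6, and values should not be read across the dotted line.

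Genes around the members rose with them in part. Of 45 other pathway genes listed, 37 could be tested, and 20 were higher and 1 lower after TBI, by the same call that 16.8% and 11.2% of all genes met. The remaining class II genes gave 3 of 3 tested higher. H2-DMb2, the second DM beta chain, went from raw counts of 0, 10 and 12 to 50, 66 and 81 (log2 fold change 3.15, edgeR adjusted p = 0.0116). H2-Oa and H2-Ob, the chains of H2-DO that restrains H2-DM, had log2 fold changes of 1.90 and 2.55. H2-Eb2 was at 0 in the sham group and at raw counts of 6, 6 and 4 in the injured group, too few to be tested.

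In the class II transcription list 4 of 13 tested genes were higher and 1 lower, beside 28% called over all genes, with a median log2 fold change of 0.17. Ifngr1, a chain of the interferon gamma receptor, rose by 1.50 on the log2 scale (SE 0.120). Further calls, named here after their values were seen, were Irf1, an interferon-induced factor that acts on Ciita, at 1.25, and the NF-Y subunits Nfya at 0.52 and Nfyb at -0.37. Jak1, Ifngr2 and Rfxap, the most abundant tested genes there by length-scaled level, had log2 fold changes of -0.05, 0.23 and -0.25 without a call. The RFX subunits Rfx5 and Rfxank, also chosen after their values were seen, had 0.17 and 0.24 without a call. Ifng itself had 0 counts in all 6 libraries.

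Endosomal processing genes gave 7 of 9 higher, with a median of 1.72. Ctss, the protease that trims Cd74, had means of 63.8 ± 5.13 CPM in sham and 543 ± 119 CPM after TBI (SD, n = 3), a log2 fold change of 3.09 (SE 0.158, edgeR adjusted p = 7.52e-06). Ifi30, a thiol reductase of the endosome, rose by 3.71, and the proteases Ctsd and Ctsb by 2.75 and 1.53 on the log2 scale. Of other ligands that T cells read, 3 of 5 were higher: Cd274, which encodes PD-L1, at 2.42, Vsir at 1.62 and Icosl at 1.57, while Cd276 had 0.21 without a call. Of T cell counter-receptors and CD40 adaptors 3 of 7 were higher. Traf1, an adaptor of TNF receptor family members, had 4.01, and Lag3, a receptor for class II, had 3.50, whereas Cd4 had -0.03 and Traf3 -0.04 without a call. The third, Cd28, was named after its value was seen and had 2.06.

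**Figure D4:**
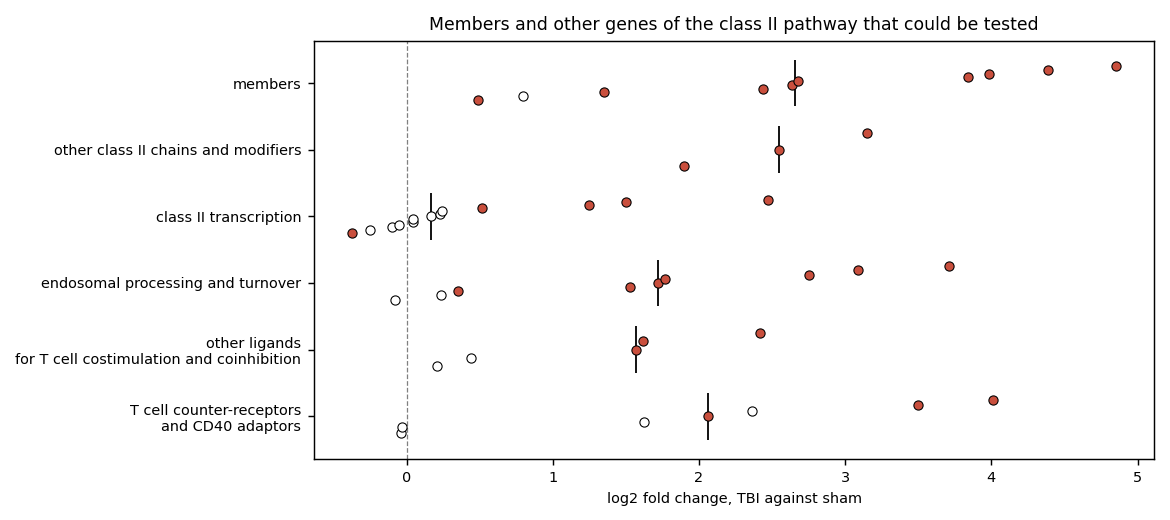
Log2 fold change of TBI against sham (horizontal axis) for every tested gene of the member list and 5 other pathway lists. Filled points have an adjusted p under 0.05 by edgeR and vertical bars mark list medians, which lie at 2.66 for the members, 0.17 for class II transcription and 1.72 for endosomal processing.

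Markers of several cell types differed as well, and those of myeloid cells rose with the members, beside 16.8% higher over all genes. All 8 homeostatic microglia markers were higher after TBI, with summed levels of 307 to 361 CPM in sham and 923 to 1293 CPM in injured mice. All 8 markers of activated microglia and macrophages were higher, with sums from 1492 to 1744 CPM up to 9038 to 11124 CPM. So were all 6 monocyte markers, from 67.8 to 73.4 up to 162 to 203 CPM. Of border macrophage markers 4 of 6 were higher, with sums from 13.1 to 15.3 up to 34.0 to 82.9 CPM. These sums are led by the most abundant markers. Taken singly, the median log2 fold change was 5.62 for activated microglia and macrophages and 4.85 for monocytes. It was 1.37 for homeostatic microglia and 2.18 for border macrophages. Of the 6 markers in each list, 5 astrocyte markers were higher, with sums of 3701 to 4139 CPM in sham and 7217 to 7556 CPM after TBI, and 4 oligodendrocyte and 4 endothelial markers were higher. Lower were 3 neuron markers, from sums of 6561 to 7193 down to 4007 to 5223 CPM, and 3 red blood cell markers. The part of these cells in the members' rise was not tested.

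Lymphocyte markers were scarce and few could be tested. Both tested T cell markers were higher, with the list of 6 summing to 0.105 to 0.266 CPM in sham and 0.996 to 1.93 CPM after TBI. The B cell list summed to 1.12 to 1.88 CPM and 2.52 to 2.90 CPM, with 1 of 3 tested higher. Dendritic cell markers summed to 20.1 to 24.2 CPM in sham and 21.6 to 22.4 CPM after TBI, with 3 of 7 tested higher and 1 lower. The T cell marker Cd8a was at 0 in all 3 sham mice. The part of these cells was not tested either.

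Choroid plexus markers, high in all 3 injured mice, were also high in sham mouse 1 at 1075 CPM and low in sham mice 2 and 3. H2-Aa, H2-Ab1, H2-Eb1 and Cd74 together came to 5.79 CPM in sham mouse 1, between the 6.53 and 5.11 CPM of sham mice 2 and 3. In the injured mice their sum was 66.5, 104.8 and 149 CPM. The part of choroid plexus tissue in the members' rise was not tested.

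Across the 6 libraries of 2018 the genes whose log2 CPM followed the mean of H2-Aa, H2-Ab1, H2-Eb1 and Cd74 most closely were Tnfrsf1a, Ifitm3, B2m, Ifi30 and Ddah2, with Pearson r of at least 0.999. B2m is the light chain of class I molecules and Tnfrsf1a a receptor for tumour necrosis factor. The 6 points form the sham and TBI clusters, so r mostly restates that difference.

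The second comparison asked whether zileuton altered these genes in injured brain. No member was called, and none reached an unadjusted p under 0.05 by edgeR or a call by DESeq2's Wald test. Over the 17363 genes tested edgeR called 0%, with 1187 genes (6.84%) at an unadjusted p under 0.05, while DESeq2 called 26 of the 29643 it was given. Of the members 3 had a fitted log2 fold change above 0 and 7 below, against 50.7% of all genes above 0. Their median was -0.10 against 0.00 over all genes. In all 10 members the groups overlapped. The share of all genes that did so is not given, so nothing is read from that count. The 3 zileuton mice differed widely among themselves.

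H2-Aa had 8.60, 13.5 and 16.9 CPM in injured mice A to C and 22.4, 8.64 and 6.55 CPM in zileuton mice A to C. Zileuton mouse A lay above and mouse C below every mouse with TBI alone. The log2 fold change was -0.05 with a 95% interval of -1.07 to 0.96 (edgeR adjusted p = 0.981), which leaves room for changes of about that size both ways.

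H2-Ab1 had 10.7, 14.4 and 16.5 CPM with TBI alone and 24.9, 8.14 and 4.74 CPM with zileuton. H2-Eb1 had 7.99, 10.5 and 16.2 CPM against 20.4, 8.07 and 4.78 CPM. In both genes zileuton mouse A was the highest and mouse C the lowest of all 6. Their log2 fold changes were -0.14 with a 95% interval of -1.33 to 1.05 and -0.06 with one of -1.18 to 1.05.

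Cd74 had 26.9, 32.5 and 47.0 CPM with TBI alone and 66.2, 27.7 and 19.7 CPM with zileuton (log2 fold change 0.10, 95% interval -0.85 to 1.05). H2-DMb1 had 5.28, 6.89 and 8.95 CPM against 8.68, 5.28 and 4.71 CPM (log2 fold change -0.18, 95% interval -0.81 to 0.45). H2-Aa, H2-Ab1, H2-Eb1 and Cd74 had coefficients of variation of 21.4% to 36.4% with TBI alone and 65.7% to 85.6% with zileuton.

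H2-DMa was steadier, with 11.7, 14.2 and 16.2 CPM in injured mice and 16.4, 14.7 and 12.9 CPM with zileuton. Its log2 fold change of 0.07 had a 95% interval of -0.27 to 0.40. Cd86 was steady as well, with 8.50, 9.64 and 10.6 CPM against 9.04, 7.16 and 8.64 CPM. Its groups overlapped, and the log2 fold change was -0.21 with a 95% interval of -0.54 to 0.12.

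Ciita had 0.857, 1.43 and 1.21 CPM with TBI alone and 3.49, 1.13 and 1.15 CPM with zileuton. Only zileuton mouse A lay above the mice with TBI alone. The fitted log2 fold change of 0.71 had a 95% interval of -0.38 to 1.81 (edgeR adjusted p = 0.748), and it was -0.04 without mouse A.

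Cd80 had 0.583, 0.715 and 1.11 CPM against 1.09, 0.377 and 0.418 CPM (log2 fold change -0.35, 95% interval -1.46 to 0.77). Cd40 had 0.686, 0.972 and 1.32 CPM against 1.38, 0.440 and 0.279 CPM (log2 fold change -0.50, 95% interval -1.81 to 0.82). In both genes zileuton mice B and C were below every mouse with TBI alone and mouse A was level with the highest.

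**Figure D5:**
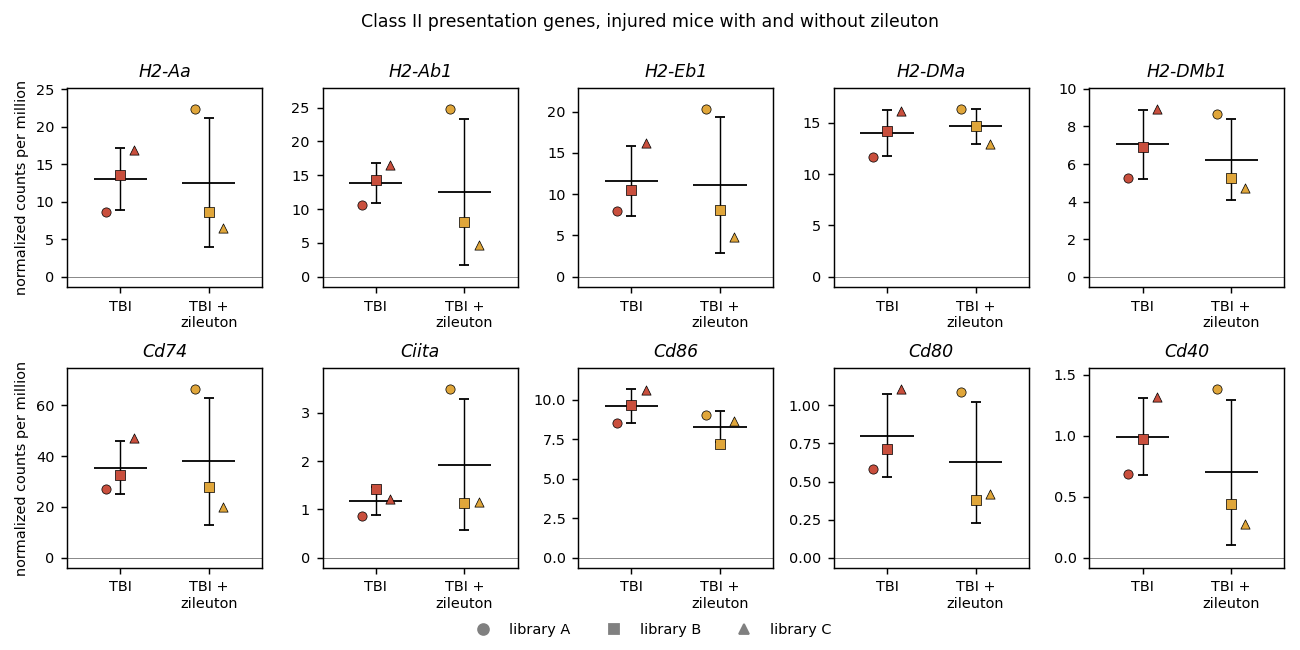
Normalized CPM (vertical axes, linear, each with its own scale) of the 10 members in 3 injured mice (red) and 3 injured mice given zileuton (yellow). Each symbol is 1 library, bars are the mean and error bars 1 SD: zileuton library A is the highest of its group in all 10 panels and of all 6 libraries in 7, and TBI library A is the lowest of its group in all 10.

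Within each group the members ranked the libraries much alike. Zileuton mouse A was the highest of its group in 10 of 10 members, and injured mouse A the lowest of its group in 10 of 10. The sum of H2-Aa, H2-Ab1, H2-Eb1 and Cd74 was 54.2, 70.9 and 96.6 CPM with TBI alone and 134, 52.5 and 35.8 CPM with zileuton. Leaving out zileuton mouse A, which was singled out after its values were seen, put all 10 members below 0, as were 51.6% of all genes, with a median log2 fold change of -0.68. Of the members 5 then had an unadjusted p under 0.05, against 10.8% of genes, and none was called, the smallest edgeR adjusted p being 0.302 for H2-Ab1 at a log2 fold change of -1.11.

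Marker sums also differed between libraries. Monocyte markers summed to 242, 221 and 226 CPM in injured mice A to C and to 365, 186 and 167 CPM in zileuton mice A to C. Such sums are led by the most abundant markers. Taken singly, 4 of the 6 monocyte markers had a fitted log2 fold change below 0 and 2 above, with a median of -0.71. An unadjusted p under 0.05 by edgeR was reached by 2 of them, beside 6.84% of all genes. Homeostatic microglia markers summed to 1047, 1419 and 1561 CPM and to 1531, 1214 and 1103 CPM. Markers of activated microglia and macrophages summed to 5280, 7220 and 10313 CPM and to 8386, 5870 and 5576 CPM. Border macrophage markers summed to 28.7, 34.4 and 48.0 CPM and to 38.4, 25.3 and 22.8 CPM. Choroid plexus markers summed to 11.0, 478 and 1057 CPM and to 1479, 1283 and 14.9 CPM. The lowest class II libraries were injured mouse A and zileuton mouse C. Each was also the lowest of its group in the choroid plexus, homeostatic microglia, activated microglia and macrophage, and border macrophage sums. In the monocyte sum injured mouse A was the highest of its group and zileuton mouse C the lowest. None of the markers in these lists was called between the groups, and their part in the members' spread was not tested.

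Other class II genes showed no call with zileuton. H2-DMb2, H2-Oa and H2-Ob had log2 fold changes of -0.08, -0.33 and 0.04, H2-Eb2 had 0 to 6 counts, and H2-Ea, matched to the pseudogene entry H2-Ea-ps, was listed at 0 in all 6 libraries. Of 36 tested genes in the pathway lists edgeR called 0, and 3 had an unadjusted p under 0.05, beside 6.84% of all genes. Those were Ctss at a log2 fold change of -0.57, Traf3 at 0.26 and, named after its value was seen, Marchf1, a ligase that removes class II from the surface, at -0.23. Ctss was also among the most abundant genes of its list. Of other abundant pathway genes Ctsd had -0.12, Ctsb -0.19, Vsir 0.01 and Jak1 0.01, while Lag3 had -0.17 and Cd4 0.47, all without a call.

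Ratios between members overlapped between the groups in all 6 pairs, with exact permutation p from 0.3 to 0.8 before adjustment. The ratio of H2-DMa to H2-DMb1 was 2.04 to 2.47 with TBI alone and 2.35 to 3.17 with zileuton. Across the 6 libraries of 2022 the genes closest to the mean of H2-Aa, H2-Ab1, H2-Eb1 and Cd74 were Flnc, Col18a1, Cbr2, Tgfbr2 and Spi1, with Pearson r from 0.991 to 0.999. Spi1 encodes PU.1, a master factor of myeloid cells, Col18a1 a basement membrane collagen and Flnc a muscle-type filamin. These are the highest r of all 17363 genes tested, over only 6 libraries, so values this high come in part from that choice. The libraries share 1 table, and no p is given for these values.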

How the data were processed

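RNA was extracted from brain tissue and sequenced as paired-end poly(A) libraries. The submitters' processing notes name HISAT2, featureCounts, Subread, DESeq2 and GRCm39, with no role or order. The authors deposited raw counts and FPKM for the 2018 batch and a table of counts with TPM for 2022. In 2018 the deposited counts were whole, and 62.3% to 64.4% of counts from 1 to 20 were even. In 2022 the deposited values are estimated counts, of which 32.2% above 0 were not whole; H2-DMa, H2-DMb1, Cd80 and Cd40 were among them, so their reads were shared with other features. They were rounded before testing, which differs from the raw counts assumed in the design. TPM lengths varied between libraries in 2022.

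Each table was fitted alone with edgeR 4.0.16 in R 4.3.3 (filterByExpr, TMM, glmQLFit, glmQLFTest, no covariate), with Benjamini-Hochberg adjustment over all genes tested and a call at an adjusted p under 0.05. CPM are TMM-normalized counts per 1000000. Ratios of length-scaled values were compared with a two-sided exact permutation test. The scripts were tested on simulated data. With 3 libraries a group, edgeR p-values set the group difference against the spread between these samples, estimated with information shared over all genes. Alternatives were DESeq2 1.42.0, limma 3.58.1 on log2(FPKM or TPM + 1 or 0.1), other filters and scalings, a length trend, halved counts, a replicate block and leaving out each library. Genes were named by rule: all members, all other class II genes, and of each other list the 3 highest in level and the 2 with the largest called change. The members, lists and rules were chosen with earlier results of these data known. Single values of some listed genes are not reported here.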

Additional observations from a re-analysis of the deposited data

How the results depend on the processing

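For TBI against sham, 9 members were called in the main analysis and 7 to 9 under the alternatives, with 3713 to 6017 genes called. Of 144 alternative values of single members 131 kept their direction and side of the threshold, 12 lost the call and 1 gained it, and none reversed. The losses were in H2-DMa and Cd40 and the gain in Ciita. H2-DMa lost its call with the length trend removed (adjusted p = 0.0638) and under limma without a filter (0.0824), and Cd40 under limma without a filter (0.0506). Limma with a pseudocount of 1 gave smaller log2 fold changes, such as 2.50 for H2-Aa and 0.27 for Cd40. The share of higher genes among calls was 60.0%, and 71.5% under limma without a filter. Same-numbered sham and injured mice did not deviate together (r = -0.02, -0.09 and -0.03), and no sham mouse correlated best with its own number. With a replicate block 4337 genes and 8 members were called, Cd40 being lost at 2.79 (adjusted p = 0.0681), and no other member's call changed. The 2022 columns share numbers across groups that match no label. Libraries with the same number did not deviate together (r = -0.28, 0.063 and -0.28), and a replicate block by these numbers, added after seeing the data, called 0 genes (729 at an unadjusted p under 0.05) and 0 members, with Cd74 at -0.064.

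For zileuton no member was called under any alternative run. Genes called went from 0 to 26 under DESeq2's Wald test, which also ran on more genes (29643 against 17363), 4 without a filter, 4 under limma with a pseudocount of 1 and 3 with 0.1. Of 140 alternative member values 24 changed sign. H2-Aa was 0.046 and H2-Eb1 0.045 with the length trend removed. Under limma Cd74 was -8.44e-05 and -0.0026, and Ciita -0.0011 and -0.094, with pseudocounts of 1 and 0.1. Leaving out 1 library gave -0.78 to 0.26 for H2-Aa, -1.11 to 0.26 for H2-Ab1, -0.85 to 0.30 for H2-Eb1, -0.050 to 0.18 for H2-DMa, -0.50 to 0.030 for H2-DMb1, -0.59 to 0.41 for Cd74 and -0.044 to 0.99 for Ciita. The log2 difference of the H2-Ab1 to Ciita ratio was -0.19 from TPM and -1.0 from CPM. The cause was not tested. Counts of 0 to 12 limited Cd40 and H2-DMb2 in sham mice.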
